A study of Homo sapiens with 3 samples.

Results

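Chemokines and interleukins were examined in 3 human lung cancer cell lines by microarray, with 1 array per line. H1975 is a lung adenocarcinoma cell line that carries mutated EGFR and is sensitive to osimertinib, an inhibitor of mutated EGFR. OR1 and OR2 are osimertinib-resistant lines selected from H1975 by stepwise exposure to the drug, up to 2 μmol/L over 4 months. They share the EGFR background of their parent, and each was represented by a single RNA sample. A gene was taken as a member by its name on the array, that is CXCL or CCL followed by a number, CX3CL1, or IL followed by a number with at most 1 letter from A to F. Receptors, binding proteins and interleukins with longer names stayed outside. This rule gave 78 genes (40 chemokines and 38 interleukins) of the 43316 genes on the array, and they were measured by 100 probes.

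Chemokines are small secreted proteins that guide leukocytes along a gradient through G protein-coupled receptors. They are named for the spacing of conserved cysteines (CC, CXC, CX3C), and CXC members with an ELR motif attract neutrophils. Interleukins act through cytokine receptors, most of them by JAK and STAT or by NF-kB signaling. Epithelial cells and carcinomas transcribe several of these ligands on their own, often from promoters that bind NF-kB or AP-1.

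Intensity is the brightness of a spot, and values below are scaled intensities, in which the 75th percentile of each array equals 100. A probe counted as detected when the scanner software called it well above background. Where a gene had several probes, the brightest was used. A gene was called higher when its ratio to H1975 was at least 2, and lower when it was at most 0.5, with the brighter side detected. Where the dim side of a ratio was not well above background it was set to the lowest signal so called on that array or to its own signal if that was higher. Such a ratio is a bound and carries the words at least or at most. The lowest signals called well above background, as scaled intensities, were 7.98 for H1975, 8.26 for OR1 and 7.80 for OR2. The technical SD of a log2 ratio comes from the scanner software's own error estimate. It describes the reading of 1 RNA sample and says nothing of the variation between cultures, so a ratio larger than this SD is not shown to exceed the spread between replicates. In the RNA of a whole culture, fewer cells of a type and less RNA per cell cannot be told apart.

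The promoters of 8 members that the results turn on are shown first, to set the motifs found there beside the readouts of the same genes. Each line holds the 120 bases before the gene's start on the gene's own strand, from RefSeq on GRCh38.p14. Capitals mark a match to the NF-kB consensus or, in IL11, to the AP-1 motif TGACTCA, both searched on both strands. The first group holds 3 neighboring ELR+ chemokine genes of chromosome 4, CXCL1 (chr4:73869273-73869392, plus strand), CXCL2 (chr4:74099196-74099315, minus strand) and CXCL3 (chr4:74038690-74038809, minus strand).
CXCL1: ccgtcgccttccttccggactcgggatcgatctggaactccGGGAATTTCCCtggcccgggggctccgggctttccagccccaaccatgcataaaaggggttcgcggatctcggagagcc
CXCL2: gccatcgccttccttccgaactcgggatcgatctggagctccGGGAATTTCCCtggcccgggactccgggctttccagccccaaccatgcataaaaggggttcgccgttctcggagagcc
CXCL3: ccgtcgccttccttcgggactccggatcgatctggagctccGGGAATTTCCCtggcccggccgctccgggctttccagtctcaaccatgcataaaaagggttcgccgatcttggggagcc
The second group holds 2 interleukins with an NF-kB match, IL32 (chr16:3065283-3065402, plus strand) and IL6 (chr7:22727080-22727199, plus strand).
IL32: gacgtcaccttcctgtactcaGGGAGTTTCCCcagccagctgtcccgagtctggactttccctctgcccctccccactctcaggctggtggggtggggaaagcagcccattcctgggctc
IL6: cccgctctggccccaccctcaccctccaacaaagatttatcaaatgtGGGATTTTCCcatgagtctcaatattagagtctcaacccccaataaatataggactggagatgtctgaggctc
The third group holds the 3 members that were lower in both resistant lines, IL11 (chr19:55370464-55370583, minus strand), IL24 (chr1:206897323-206897442, plus strand) and CCL26 (chr7:75789747-75789866, minus strand).
IL11: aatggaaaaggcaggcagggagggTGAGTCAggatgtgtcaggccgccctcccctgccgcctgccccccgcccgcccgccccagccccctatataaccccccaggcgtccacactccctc
IL24: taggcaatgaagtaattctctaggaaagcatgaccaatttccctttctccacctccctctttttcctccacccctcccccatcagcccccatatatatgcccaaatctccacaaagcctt
CCL26: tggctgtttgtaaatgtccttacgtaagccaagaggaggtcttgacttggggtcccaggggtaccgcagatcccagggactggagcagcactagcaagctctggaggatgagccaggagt
In CXCL1, CXCL2, CXCL3 and IL32 the capitals cover 2 overlapping matches, 1 on each strand. They begin at base -79 in CXCL1 and CXCL3, -78 in CXCL2 and -99 in IL32, counted from the gene's start, and the single match of IL6 begins at -73. Of the 60 bases around the match, read without gaps, CXCL1 and CXCL3 shared 56, CXCL1 and CXCL2 shared 49, and CXCL2 and CXCL3 shared 48. The promoter of IL11 held the AP-1 motif on its opposite strand at -96 to -90. These windows of IL24 and CCL26 held neither set of letters, and neither did a second RefSeq start of IL32. An NF-kB match was found in 5.91% of all 35116 RefSeq promoters of 300 bases and in 2.49% of the shorter windows shown here. Among the 76 promoters listed for 57 members, 14 (18.4%) held an NF-kB match and 15 (19.7%) held TGACTCA, against 4.95% of all promoters for the latter. Of these, 8 with an NF-kB match and 4 with TGACTCA belonged to members detected on at least 1 array. Detected members with an NF-kB match also included CXCL5, IL17D and IL23A, and those with TGACTCA included CCL24 and IL23A. None of these named genes was called. A match describes the letters only. CCL2, CX3CL1, CCL14 and CXCL16 were not in the promoter table.

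Most chemokine and interleukin mRNAs were below the range of the arrays in all 3 lines. Of the 78 members, 31 (39.7%) were detected on at least 1 array, 24 of them on all 3, compared to 51.8% of all genes on at least 1. H1975 had 27 detected members, OR1 had 28 and OR2 had 28. The 47 members that were not detected had scaled intensities of 1.57 to 9.20, at which no ratio was given. By class, 17 of 40 chemokines and 14 of 38 interleukins were detected. The detected set was uneven across subfamilies. Of the 6 ELR+ chemokines, CXCL1, CXCL2, CXCL3 and CXCL5 were detected, while CXCL6 and CXCL8 were not. None of the 3 interferon-induced chemokines CXCL9, CXCL10 and CXCL11, which attract activated T cells through CXCR3, was detected. Of the 10 cytokines of the common gamma chain and T helper group, IL15 alone was detected, and IL2, IL3, IL4, IL5, IL7, IL9, IL13, IL21 and IL31 were not. IL1A and IL33, alarmins of the IL1 family, were also not detected, nor were IL36A and IL36B. The same held for CXCL13, CXCL14 and CXCL17 and for the inflammatory CC chemokines CCL1, CCL3, CCL3L3, CCL4L2, CCL7, CCL8, CCL13, CCL18, CCL20 and CCL23. Of the chemokines that guide eosinophils, T helper cells and resting lymphocytes, CCL11, CCL22, CCL21, CCL25 and CCL27 were not detected. Further undetected members were both subunits of interleukin 12 (IL12A and IL12B), IL10, IL19, IL20 and IL22 of the IL10 family, IL17A, IL17B, IL17F and IL25 of the IL17 family, and IL34. A few undetected members had a signal above the lowest one called well above background on the same array, as processed intensity CXCL8 (12.7) in OR1 and CXCL14 (12.6), IL12A (13.0) and IL36B (14.9) in OR2.

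**Figure D1:**
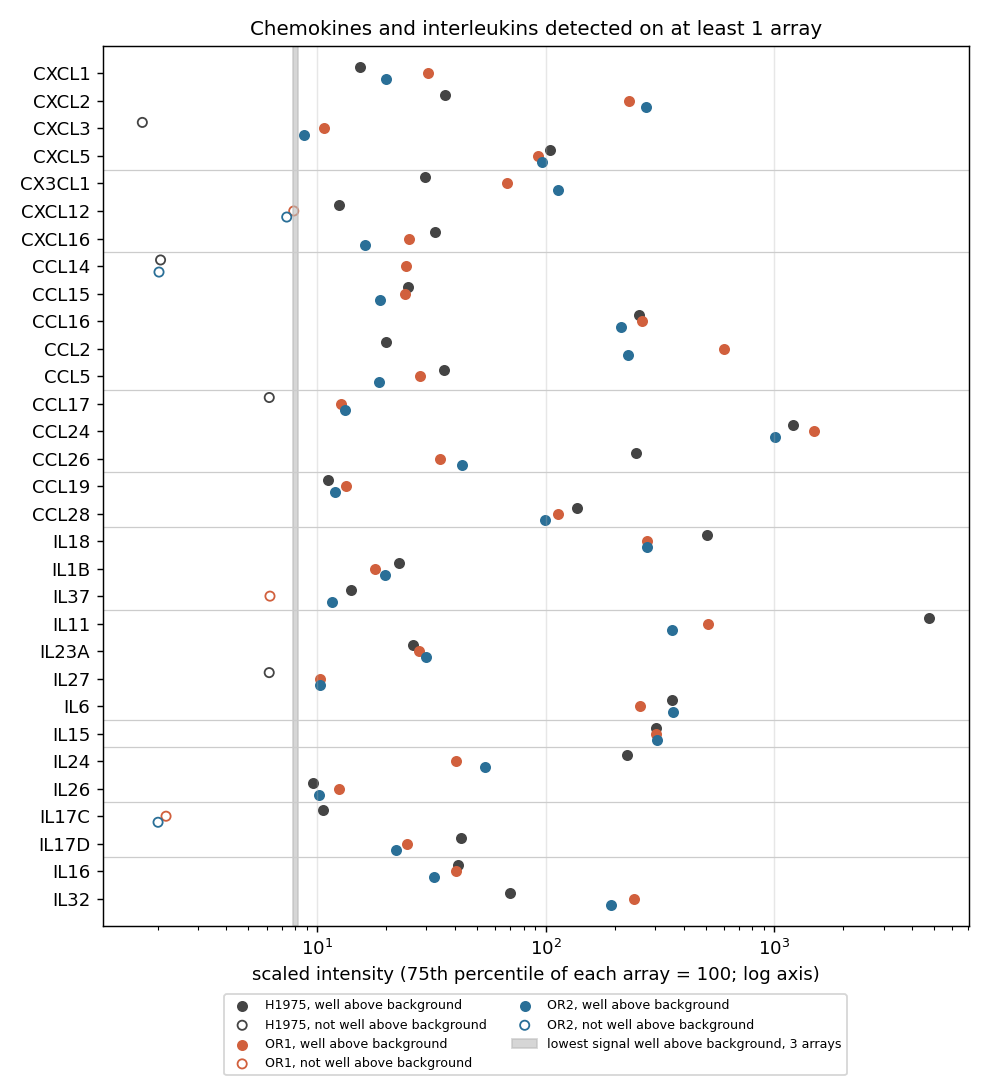
Scaled intensity on a log axis of the 31 members detected on at least 1 array, 1 point per line, grouped by subfamily. Filled points were well above background and open points were not, and the grey band spans the lowest signals so called. CCL2 lies at 20.0 for H1975 and at 603 and 228 for OR1 and OR2, and IL11 at 4748 against 512 and 357.

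OR1 was compared to H1975 to find members whose mRNA differed after selection. Of 31 members that could be compared, 5 were higher in OR1 (16.1%), namely CCL2, CXCL2, IL32, CX3CL1 and CCL14, where 9.17% of all genes tested were called higher. Another 3 were lower (9.68%), IL11, CCL26 and IL24, close to the 9.58% of all genes. In OR2, 4 of 30 members were higher than in H1975 (13.3%; 7.72% of all genes), CCL2, CXCL2, CX3CL1 and IL32. Another 4 of 30 were lower in OR2 (13.3%; 8.70% of all genes), IL11, CCL26, IL24 and CXCL16. The same 4 members were thus higher in both lines (5.09% of all genes) and 3 were lower in both (6.32% of all genes). When arrays were scaled on spike-in probes, every measured log2 ratio of OR1 dropped by 0.60. Both comparisons use the same H1975 array, so an error in that array enters both in the same direction. Over the 24 members detected on all arrays the median log2 ratio was -0.04 for OR1 and -0.23 for OR2, against 0.03 and -0.05 over all genes detected on all arrays. The members therefore had no common direction. In OR1 11 were above 0 and 13 below, and in OR2 10 were above and 14 below, while their range ran from -3.21 to 4.91 for OR1 and from -3.73 to 3.51 for OR2.

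**Figure D2:**
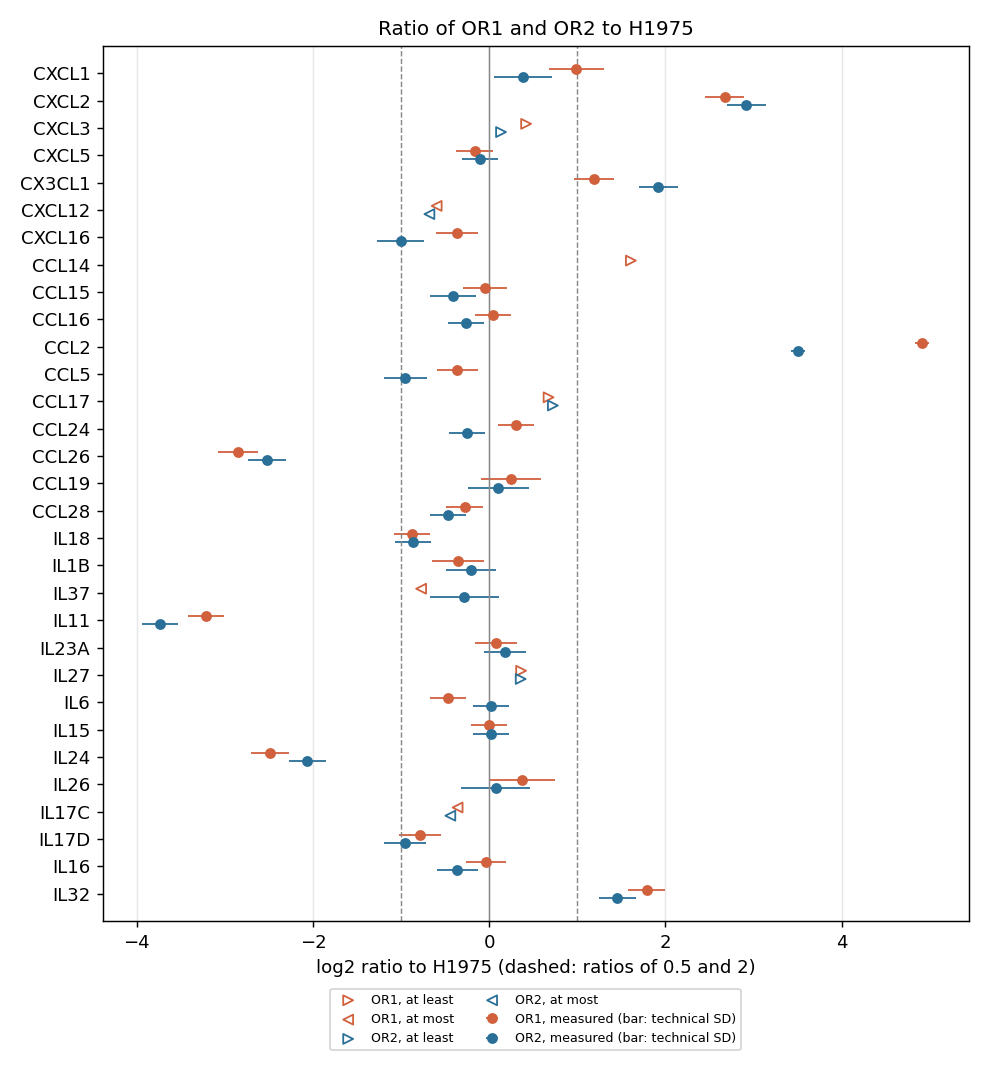
Log2 ratio of OR1 and OR2 to H1975 for the same 31 members. Points are measured ratios with the technical SD as a bar, triangles are bounds that point away from the limit, and dashed lines mark ratios of 0.5 and 2. CCL2, CXCL2, CX3CL1 and IL32 lie right of the upper line in both resistant lines, and IL11, CCL26 and IL24 left of the lower one.

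Among the CC chemokines, CCL2 attracts monocytes through CCR2. On hg19 its probe (NM_002982) covers chromosome 17 from 32584050 to 32584109. The scaled intensity was 20.0 for H1975, 603 for OR1 and 228 for OR2. CCL2 was low but detected in the parental line and high in both resistant lines, highest in OR1. The ratio to H1975 was 30.2 for OR1 and 11.4 for OR2, with a log2 technical SD of 0.08 for each. Between the resistant lines, the log2 ratio of OR2 to OR1 was -1.41. With another background correction (normexp), the ratios to H1975 were 10.7 and 4.56. CCL2 opens a cluster of related genes on chromosome 17, and its neighbors CCL7, CCL11, CCL8, CCL13 and CCL1 were not detected on any array.

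A second cluster of chromosome 17 holds CCL5, CCL16, CCL14 and CCL15. CCL14, a ligand of CCR1, had scaled intensities of 2.06 for H1975, 24.3 for OR1 and 2.03 for OR2. It was detected in OR1 and on neither other array, so its ratio to H1975 was at least 3.05, and the log2 ratio of OR2 to OR1 was at most -1.64. Its value depended on the background correction, as normexp gave a ratio of 1.39, which is not a call. CCL5, which attracts T cells and monocytes, had scaled intensities of 36.0 for H1975, 28.0 for OR1 and 18.6 for OR2. The order of CCL5 ran from H1975 down to OR2, yet its log2 ratios of -0.36 and -0.95 did not reach the limit of a call. CCL15, another ligand of CCR1, was at 24.99, 24.3 and 18.8 for H1975, OR1 and OR2. CCL16, which attracts monocytes and lymphocytes, was at 255, 262 and 213 by its brighter probe, while its other probe was below background on all arrays. Neither CCL15 nor CCL16 passed a ratio in any line.

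The eotaxins CCL24 and CCL26 recruit eosinophils through CCR3 and lie side by side on chromosome 7. CCL26 (NM_006072, from 75399061 to 75401219) had scaled intensities of 247 for H1975, 34.2 for OR1 and 43.0 for OR2. It was high in the parental line alone, with a ratio of 0.139 for OR1 and 0.174 for OR2 and technical SDs of 0.22 and 0.21. With normexp the ratios were 0.273 and 0.287, still below 0.5. Its neighbor CCL24 was at 1199 for H1975, 1486 for OR1 and 1009 for OR2. CCL24 thus had a strong signal in all 3 lines, and its log2 ratios of 0.31 and -0.25 lay on opposite sides of 0 and inside the limits of a call. CCL17, which attracts T cells through CCR4, was below background in H1975 (6.16) and detected in OR1 (12.7) and OR2 (13.2), so that its ratios were at least 1.60 and at least 1.65.

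The homeostatic chemokines showed little difference. CCL28, a mucosal chemokine that binds CCR10, had scaled intensities of 137 for H1975, 113 for OR1 and 99.4 for OR2. CCL19, which binds CCR7 and guides lymphocytes to lymph nodes, was at 11.2, 13.3 and 12.0, close to the background of every array. Neither gene was called in OR1 or OR2.

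Of the ELR+ chemokines, which attract neutrophils through CXCR2, CXCL2 was the only one called. CXCL2 (NM_002089, chromosome 4 of hg19 from 74962985 to 74963044) had scaled intensities of 36.1 for H1975, 231 for OR1 and 274 for OR2. Both resistant lines were high and differed little from each other, with a log2 ratio of OR2 to OR1 of 0.24. The ratio to H1975 was 6.39 for OR1 and 7.57 for OR2, with a technical SD of 0.22 in each. A second probe of CXCL2, from 74964342 to 74964401, gave 4.90 and 5.44. With normexp the ratios of the brighter probe were 3.34 and 4.07.

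CXCL1 and CXCL3, whose promoters shown above hold the same match as that of CXCL2, were not called. CXCL1 had scaled intensities of 15.3 for H1975, 30.5 for OR1 and 20.0 for OR2, so OR1 was the brightest and its ratio of 1.99 lay just inside the limit. The ratio in OR2 was 1.31, with technical SDs of 0.31 and 0.33 in log2 units. A second, dimmer probe of CXCL1 gave a different order, with ratios of at least 1.65 for OR1 and at least 2.24 for OR2. CXCL3 was below background in H1975 (1.72) and just detected in OR1 (10.7) and OR2 (8.76), and its ratios were at least 1.34 and at least 1.098. CXCL5 was at 104, 92.7 and 96.5 for H1975, OR1 and OR2 and showed no difference beyond its technical SD of 0.21. The chemokines of this cluster are close relatives, and whether a probe also bound the mRNA of another was not tested.

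CX3CL1 and CXCL16 are the chemokines made as membrane proteins, which can be shed from the cell surface. CX3CL1 (fractalkine, ligand of CX3CR1) was measured on chromosome 16 from 57418025 to 57418084. Its scaled intensity was 29.7 for H1975, 67.7 for OR1 and 112 for OR2. The order therefore differed from that of CCL2, with OR2 above OR1 and both above H1975. The ratio of CX3CL1 was 2.28 for OR1 and 3.79 for OR2, with a technical SD of 0.23 in each. The call in OR1 ended under spike-in scaling (1.503) and also with normexp (log2 ratio 0.64), which lowered OR2 to 2.25. CXCL16, ligand of CXCR6, went the other way, with 32.6 for H1975, 25.3 for OR1 and 16.2 for OR2. Its ratio of 0.776 for OR1 was not called, and its ratio of 0.499 for OR2 lay at the limit. The second probe of CXCL16 gave 0.576 for OR2 and normexp gave 0.744, neither of which is a call. CXCL12, ligand of CXCR4, was detected in H1975 (12.5) and below background in OR1 (7.89) and OR2 (7.35), with ratios of at most 0.662 and at most 0.625, and its 3 other probes were below background on all arrays.

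**Figure D3:**
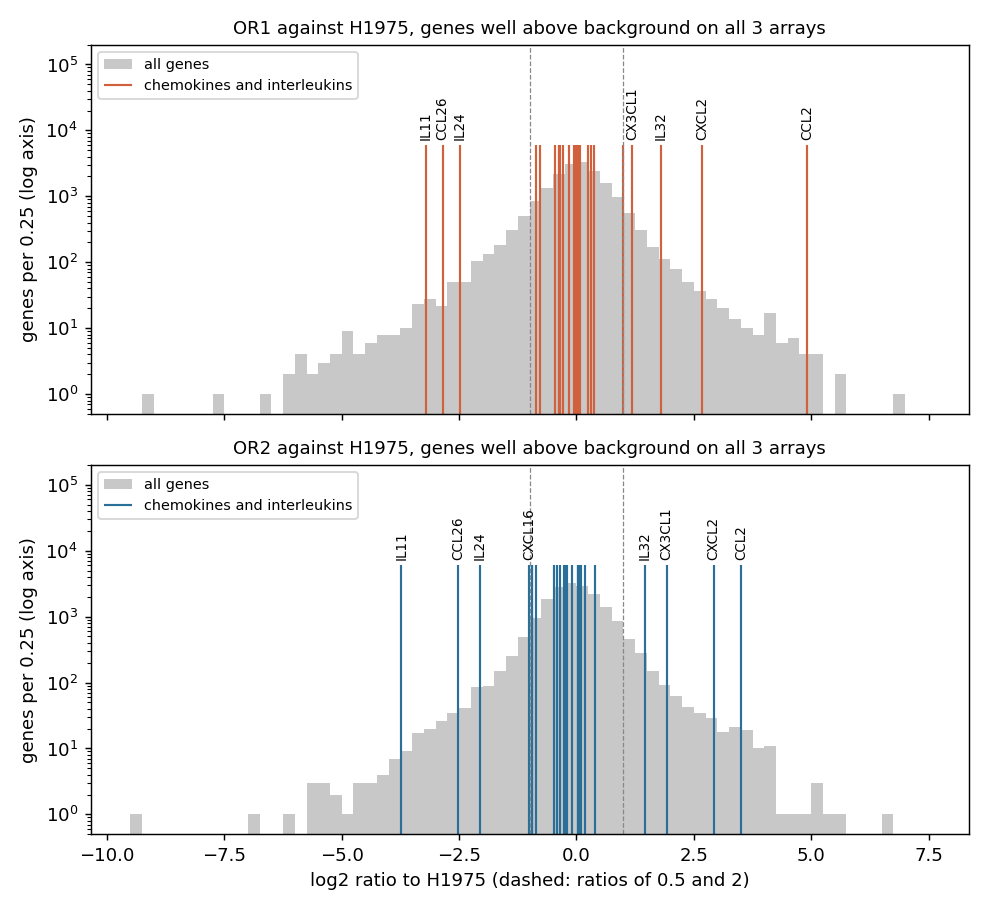
Log2 ratio of each resistant line to H1975 for the genes detected on all 3 arrays (grey bars, number of genes per step of 0.25 on a log axis), with each of the 24 members detected on all arrays drawn as a line whose height carries no value. Dashed lines mark ratios of 0.5 and 2. Most members lie between them, and CCL2 at 4.91 for OR1 and IL11 at -3.73 for OR2 lie farthest out.

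IL11 had the lowest ratio of any member in both lines. IL11 belongs to the IL6 type cytokines and acts through IL11RA and the shared signaling chain gp130, the product of IL6ST. Its probe (NM_000641) lies on chromosome 19 from 55875788 to 55875847. Scaled intensities were 4748 for H1975, 512 for OR1 and 357 for OR2. H1975 stood far above both resistant lines, which still had a signal well above background. The ratio was 0.108 for OR1 and 0.0753 for OR2, with a technical SD of 0.20 in each, and the highest values under the alternatives run were 0.115 and 0.0875. IL6, of the same type, did not follow it, with scaled intensities of 356 for H1975, 257 for OR1 and 361 for OR2. OR1 was the lowest for IL6, while OR2 and H1975 lay within the technical SD of 0.20 of each other. Spike-in scaling, which lowered every measured log2 ratio of OR1 by 0.60, brought IL6 past the limit of a call in OR1. The receptor chains of IL11 were detected in all lines. IL11RA had log2 ratios of 0.60 for OR1 and 0.53 for OR2, and IL6ST had -0.05 and 0.06.

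IL24 of the IL10 family acts on epithelial cells through IL20RB paired with IL20RA or IL22RA1. IL24 (NM_001185156, chromosome 1 from 207076757 to 207076816) had scaled intensities of 227 for H1975, 40.6 for OR1 and 54.4 for OR2. It was high in H1975 and low in both resistant lines, with a ratio of 0.178 for OR1 and 0.239 for OR2 and technical SDs of 0.22 and 0.21. A second probe of IL24 gave at most 0.181 for OR1 and 0.225 for OR2, so the probes differed little. With normexp the ratios were 0.313 and 0.361. IL10, IL19 and IL20, which lie beside IL24 on chromosome 1, were not detected. IL26, a further relative, was near background in all lines (9.61, 12.5 and 10.1 for H1975, OR1 and OR2).

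IL32 is a proinflammatory cytokine outside the larger families that can induce TNF and other cytokines. IL32 (NM_001012631, chromosome 16 from 3119308 to 3119367) had scaled intensities of 69.9 for H1975, 242 for OR1 and 192 for OR2. Both resistant lines were above H1975, and OR1 was slightly above OR2. The ratio was 3.46 for OR1 and 2.74 for OR2, with a technical SD of 0.21 in each, and a second probe gave 2.74 and 2.20. The lowest values under the alternatives were 2.28 for OR1 with spike-in scaling and 2.15 for OR2 with normexp. IL16, a T cell attractant that is not related to IL32 in sequence, was at 41.4, 40.6 and 32.3 by its brightest probe. It was not called, and its other probes were below background on all arrays.

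The remaining interleukins were not called in either line. IL18, which is activated by caspase-1, had scaled intensities of 506 for H1975, 277 for OR1 and 277 for OR2, a ratio of 0.546 and 0.548. IL17D, of the IL17 family, was at 42.6, 24.7 and 22.03, with ratios of 0.581 and 0.518. Both genes were thus lower in OR1 and OR2 by less than the limit of a call, and spike-in scaling brought both past that limit in OR1. IL15, which supports natural killer and memory T cells, was at 302 for H1975, 302 for OR1 and 308 for OR2. IL1B, a central inflammatory cytokine, was at 22.9, 17.9 and 19.8. IL23A, a subunit of interleukin 23, was at 26.3, 27.7 and 29.9. The log2 ratios of IL15, IL1B and IL23A ran from -0.35 (IL1B in OR1) to 0.18 (IL23A in OR2), with technical SDs of 0.20 to 0.30. A few interleukins were near the background of the arrays. IL37, which dampens inflammation, was detected in H1975 (14.1) and OR2 (11.6) but not in OR1 (6.21). IL17C, an epithelial cytokine, was detected in H1975 alone (10.6). IL27, which pairs with EBI3, was detected in OR1 (10.3) and OR2 (10.2) but not in H1975 (6.16). Their ratios were bounds between 0.586 and 1.29, apart from the measured 0.821 of IL37 for OR2.

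OR1 and OR2 differed from each other in few members. Of 29 members that could be compared, none was at least 2-fold higher in OR2 than in OR1 (2.48% of all genes were), and 2 were lower (6.90%; 2.89% of all genes), CCL2 and CCL14. These counts depended on the scaling, as 5 members were higher and 0 lower in OR2 than in OR1 under spike-in scaling. The call for CCL14 also ended with normexp. CX3CL1 came nearest in the other direction, with a ratio of OR2 to OR1 of 1.66.

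With 1 array per line no ratio has a replicate check. A limma fit that treated both resistant lines as 2 replicates of resistance left 1 residual degree of freedom, and the single H1975 array was assumed to be as variable as they were. The Benjamini-Hochberg adjusted p from limma was 0.0413 for IL11, 0.0449 for CXCL2 and 0.0499 for CCL26. It was 0.0720 for IL24, 0.0759 for CCL2, 0.122 for IL32 and 0.194 for CX3CL1. Thus 1 member passed as higher and 2 as lower, where 0.928% and 1.66% of all genes did. A gene's own spread in this fit comes from the distance between OR1 and OR2, which for CCL2 was -1.41 as a log2 ratio. That spread was then drawn toward a value estimated over all genes tested.

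Receptors were examined next, from a list for each ligand class. Of 23 chemokine receptors, 7 were detected, among them CCR6, CCR10, CXCR3 and CCRL2. The receptors of the called chemokines, CCR2 (CCL2), CXCR2 (CXCL2), CX3CR1 (CX3CL1), CCR3 (CCL26) and CXCR6 (CXCL16), were not detected on any array. CCRL2, a receptor that binds chemerin without classical signaling, was the only one higher in both lines. Its scaled intensity was 33.7 for H1975, 112 for OR1 and 105 for OR2, a ratio of 3.32 and 3.12, or 2.08 and 2.01 with normexp. In OR2 alone, CCR10 was higher (log2 ratio 1.66), and the scavenger receptor ACKR3 was lower (-1.68). None of the detected receptors was lower in both lines.

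Of 44 interleukin receptor genes, 31 were detected, 26 of them on all arrays. In both lines 3 were higher, where 5.09% of all genes were, the ligand-binding chain IL6R (ratios 2.14 and 2.63 for OR1 and OR2), IL17RC (2.20 and 2.66) and IL27RA (2.60 and 3.27). None of the 3 kept a ratio of 2 in OR1 with spike-in scaling, and IL6R had 1.72 in OR2 with normexp. Another 5 were lower in both lines, where 6.32% of all genes were. IL22RA1, a chain shared by the receptors of IL22, IL20 and IL24, was at 104 for H1975, 25.4 for OR1 and 21.6 for OR2, a ratio of 0.244 and 0.208, or 0.441 and 0.392 with normexp. The ligand IL24 and this chain were thus both lower, while the partner chain IL20RB had log2 ratios of 0.17 and 0.14 and IL20RA was not detected. IL17RA, the chain common to several IL17 receptors, had ratios of 0.465 and 0.359, opposite to IL17RC. CSF1R, the receptor of CSF1 and of the interleukin IL34, had 0.249 and 0.375. IFNLR1 (lambda interferon receptor; 0.1499 and 0.143) and IL22RA2 (a soluble decoy of IL22; at most 0.117 and at most 0.110) rested on their brightest probe. As the median over its probes, IFNLR1 had a ratio of 0.916 in OR1 and IL22RA2 had 0.724 and 0.683, which are not calls. Over the receptors detected on all arrays, the median log2 ratio was -0.05 for OR1 and 0.13 for OR2.

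Antagonists and related ligands outside the naming rule held some of the widest ratios. Of 20 listed, 19 were found on the array and 10 were detected. In both lines 2 were higher and 1 was lower, where 5.09% and 6.32% of all genes were. IL1RN, the natural antagonist of IL1, was at 347 for H1975, 8.97 for OR1 and 15.9 for OR2. Its ratio was 0.0259 for OR1 and 0.0457 for OR2 by the brightest probe, and 0.158 and 0.151 as the median over its probes. IL1RN was thus close to background in the resistant lines, while the agonist IL1B described above had log2 ratios of -0.35 and -0.21. EBI3, the partner of IL27, was at 25.7, 153 and 239, a ratio of 5.96 and 9.30, or 3.03 and 4.39 with normexp. CTF1 (cardiotrophin-1, an IL6 type cytokine that signals through LIFR and gp130) was at 72.9, 492 and 498, a ratio of 6.74 and 6.82. In the IL6 and IL12 families, therefore, EBI3 and CTF1 were higher and IL11 was lower in both lines. Other ligands of the list differed from these. CLCF1 was lower in OR2 alone, with ratios of 0.540 for OR1 and 0.316 for OR2. LIF was not called, with 1.14 for OR1 and 0.828 for OR2.

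The NF-kB list held 32 feedback and target genes, of which 29 were detected. In both lines 4 were higher and 1 was lower, where 5.09% and 6.32% of all genes were. Complement C3 was at 184 for H1975, 4482 for OR1 and 2980 for OR2, a ratio of 24.3 and 16.2. The adhesion molecule ICAM1 had ratios of 3.77 and 3.33. BIRC3, an inhibitor of apoptosis, and LTB, a TNF family ligand, were below background in H1975 and had ratios of at least 4.44 and 3.91 and at least 6.51 and 7.06, all under 2 with normexp. TNFAIP2 was lower, with ratios of 0.237 and 0.343. The inhibitor and feedback gene NFKBIA had log2 ratios of 0.72 and 0.60, and the subunit genes RELA (0.53 and 0.39) and NFKB1 (0.21 and 0.07) were not called. Over the 22 genes of the list detected on all arrays, the median log2 ratio was 0.27 for OR1 and -0.06 for OR2. Over all genes so detected it was 0.03 and -0.05. BIRC3 and LTB, below background in H1975, are outside this median. The genes called higher in both lines were 4 of the 29 detected and not the bulk of the list.

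**Figure D4:**
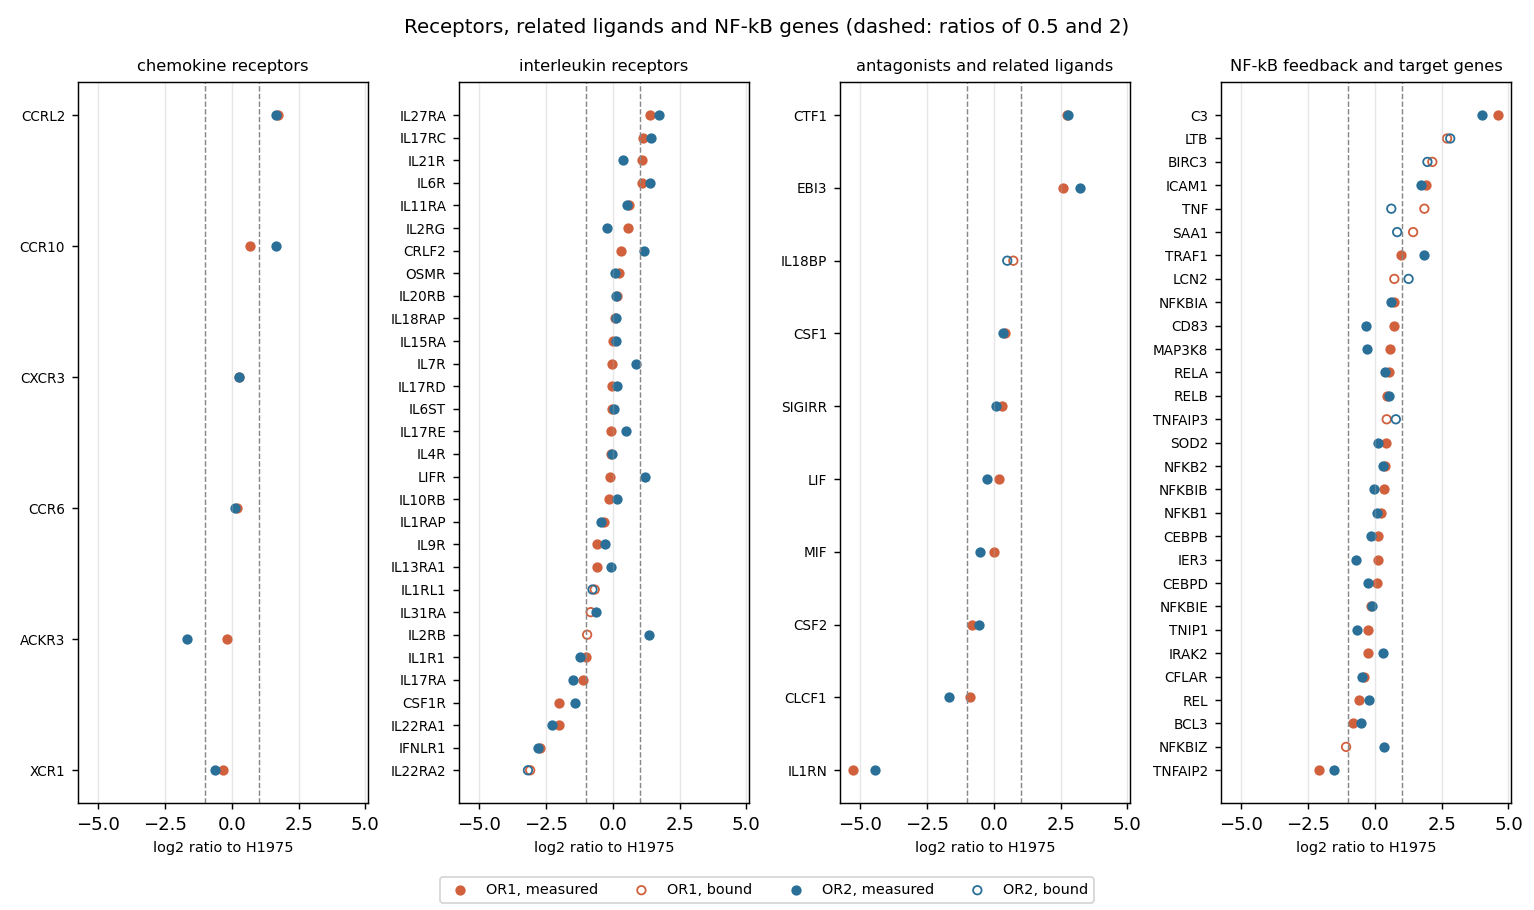
Log2 ratio of OR1 and OR2 to H1975 for detected genes of 4 lists, chemokine receptors, interleukin receptors, antagonists and related ligands, and NF-kB feedback and target genes, sorted by OR1. Filled points are measured ratios, open points are bounds and dashed lines mark ratios of 0.5 and 2. C3 and IL1RN lie farthest from 0, with log2 ratios of 4.60 and -5.27 for OR1.

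Markers of leukocytes, of lung epithelium, which is the type of these lines, and of fibroblasts were read beside these values. Of 9 leukocyte markers 7 were found on the array, and CD3E, MS4A1, NKG7 and ITGAM were not detected in any line. PTPRC, the pan-leukocyte gene, was near background in all lines (13.4, 15.0 and 12.7), while CD14, a monocyte gene that other cells can also express, had log2 ratios of 2.09 and 2.71. The summed scaled intensity of the 3 detected leukocyte markers was 366 for H1975, 877 for OR1 and 1345 for OR2. Of 8 lung epithelial markers 7 were detected, and EPCAM, KRT7, KRT19 and CDH1 were lower in both lines, while KRT8 and KRT18 were not called. NKX2-1 was lower in OR1 (ratio 0.252) and not called in OR2 (1.36). The sum of the 7 detected epithelial markers was 248554 for H1975, 107254 for OR1 and 107144 for OR2. Among 7 fibroblast markers, COL1A1, COL1A2 and LUM were detected and DCN, COL3A1, PDGFRA and THY1 were not. The sum of the detected ones was 421 for H1975, 488 for OR1 and 58.7 for OR2. The part of these genes in the chemokine and interleukin values was not tested.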

How the data were processed

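The authors labeled RNA of the 3 lines and hybridized it to single-colour Agilent arrays of a shared slide, 1 array for each line. The deposited scanner files give the intensity of each spot after background correction, not scaled between arrays (Feature Extraction 10.7.1.1 per the file headers, 9.5.1.1 per the submitters' processing notes). A deposited table of normalized intensities served as an alternative, and its method is not given in the sources used here. Its median log2 ratio over all genes lay 0.009 above the main one for OR1 and 0.060 above for OR2. Quantile scaling gave the same shifts, so both alternatives may not be separate checks. Control and outlier spots were left out, repeated spots were averaged as log2 values, and each array was scaled on its 75th percentile (157, 138 and 162 in H1975, OR1 and OR2) over 58200 probes, of which 45.6% to 45.9% were well above background. No spot was saturated. The number of arrays limits the precision. OR1 and OR2 were each divided by H1975 without a test, and the limits of 2 and 0.5 come from the study's methods. Every detected member is named. Genes of the receptor, ligand and NF-kB lists were named when past the ratio in both lines, with others, such as the receptors of called ligands, named after their values were seen. The values of 1 listed gene are not reported here. Members, lists and tests were chosen with earlier results of these data known. All 78 members matched a RefSeq symbol. The counting was tested on simulated data. Alternatives were other scalings (quantile, none, spike-in, detected probes), normexp with an offset of 50, the authors' table, other filters, the median over probes, ratios of 1.5 and 4, and limma. Python 3.11.15, numpy 2.4.6, pandas 2.3.3, matplotlib 3.10.9, R 4.3.3 and limma 3.58.1 were used. Probe positions are on hg19 and promoters on GRCh38.p14.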

Additional observations from a re-analysis of the deposited data

Results flagged for a closer look

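For 3 members the ratio to H1975 pointed up in one resistant line and down in the other, and this difference was not tested. CCL24 had log2 ratios of 0.31 for OR1 and -0.25 for OR2, a difference of -0.5593 for OR2 over OR1. CCL16 had 0.04 in OR1 and -0.26 in OR2, a difference of -0.2998. IL6 had -0.47 in OR1 and 0.02 in OR2, a difference of 0.4910. The 0.04 of CCL16 in OR1 and the 0.02 of IL6 in OR2 lay within their technical SD of 0.20, so their signs are not settled. With spike-in scaling CCL24 in OR1 was at -0.29 and CCL16 in OR1 at -0.56, so the opposite signs of both ended.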

How the results depend on the processing

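No paired analysis was possible because each line has 1 array. None of the values computed under an alternative reversed a call. Of the counts and medians over the members, 95 recomputed values were close to the one given and 23 moved. Some could not move, as a median over genes detected on all 3 arrays is unchanged when that detection is required. Spike-in scaling, which moved the median of all genes in OR1 by -0.60, gave a median log2 ratio of members of -0.64 in OR1, 8 members lower in OR1, 5 higher in OR2 than in OR1 and 0 lower. No scaling moved the median of all genes in OR1 by -0.19. Normexp left 3 members higher in OR1 (CCL2, CXCL2 and IL32) and 1 lower in OR2 than in OR1. Requiring detection on all 3 arrays also left 1 lower in OR2 than in OR1. Without the background filter, 17 members were higher and 7 lower in OR1, 11 were higher in OR2, 9 were higher in both lines, and between OR2 and OR1 2 were higher and 8 lower. At a ratio of 1.5, 7 were lower in OR1, 8 in OR2 and 6 in both, with 1 higher and 5 lower in OR2 than in OR1. At a ratio of 4, CCL2 and CXCL2 were the 2 members higher in OR1, in OR2 and in both, and 0 were lower in OR2 than in OR1. The limma fit, which had a single H1975 array, adds no count here. The counts under the alternatives are given without the share of all genes under the same setting. They show only how the main counts moved. Among single genes and lists, 879 values stayed close and 141 moved by more than their technical SD or, for counts, by over 1.5 times. Normexp accounted for 48 of the moved values and spike-in scaling for 43. Some of the values that stayed close could not move, since the filters leave the ratio of a gene detected on all arrays as it was. Members with signals near the background of the arrays are the least certain, since normexp and the filter act there.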
